A study of Homo sapiens with 6 samples.

Results

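The forkhead transcription factor genes were followed through 2 histone modifications in G401 cells. The family was taken as every gene in the deposited count table named FOX with a letter from A to S, a number and at most 1 further letter. This gave 46 of the 56638 genes in the table, and the 44 with at least 1 count in the input libraries (chromatin sequenced without an antibody) were kept. FOXN1 and FOXO3B had no counts in any of the 6 libraries. G401 is a malignant rhabdoid tumor line that lacks SMARCB1, and all 6 libraries came from it. Cells were grown for 3 days in DMSO or in 3 µM MAK683, which binds EED and inhibits Polycomb repressive complex 2 (PRC2). Each treatment had 1 library of H3K27me3, 1 of H3K4me3 and 1 of input.

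Forkhead proteins bind DNA through a winged-helix domain. Many of them set cell identity in the embryo, such as FOXA proteins in endoderm and FOXF and FOXC proteins in mesenchyme, while others, such as the FOXO and FOXK proteins, work in most cells. PRC2 places H3K27me3 on developmental genes that are silent, and H3K4me3 marks the start sites of genes that are active or poised.

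With a single library per treatment and antibody, treatment and library cannot be told apart, no p-value was computed, and nothing here had a replicate check. Reads were counted per gene without the spike-in scaling, so a value gives a gene's place within its library, and total amounts of a modification cannot be compared between treatments. The counted part of a gene is not named. Over both inputs the median count per kb of gene span was 24.0 in members under 10 kb and 26.3 in longer ones. Library totals lay between 13308099 and 21281877 counts, 1 count was worth 0.0470 to 0.0751 CPM (counts scaled to a common library total), and the family held 0.171 to 0.229% of each library. Genes with 2 counts outnumbered those with 1 by 1.25 to 1.51 times, as if both reads of a pair were counted, so the 95% Clopper-Pearson intervals were computed with 2 counts per fragment and cover counting error only. SMARCB1 had 0 input counts in both treatments and at most 4 counts in any library.

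The members lay on 19 chromosomes, with 3 on X, and 15 of them had 1 coding exon. Their spans ran from 1.30 to 629 kb with a median of 5.99 kb, and 28 were shorter than 10 kb. A modification that sits at a start site fills a smaller part of a long gene, so each count is also given among protein-coding genes with a span under 10 kb. The level of a gene was the log2 ratio of ChIP to input in CPM, with 0.05 CPM added to each, for genes with at least 20 counts over both inputs. All members but FOXD3 (10 and 4 input counts in DMSO and MAK683) reached this minimum.

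In DMSO, H3K27me3 lay on many tissue-restricted members and was low on all but a few of the broadly expressed ones. At least 2-fold H3K27me3 over input was found at 18 of 43 members, or 41.9%, against 12.6% of the 29528 genes measured. The median log2 level was 0.32 in the family and -0.66 over all genes. The interval of the family median (-0.78 to 1.42) held the all-gene value. With a minimum of 100 summed input counts the family median was -0.04. Among members under 10 kb it was 16 of 26, against 18.2% of protein-coding genes of such length. The patterning and lineage members supplied 16 of their 27, the broadly expressed members 1 of 12 (FOXP1) and the remaining 4 only FOXR2. Role went together with gene length, since of the broadly expressed members only FOXO4 (7.68 kb) spans less than 10 kb. Of the patterning members longer than 10 kb, FOXB1 passed 2-fold and FOXN4, FOXP2 and FOXP3 did not. Whether role or length goes with the difference was not tested. The scatter of both modifications in DMSO shows the split by role along its horizontal axis.

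**Figure D1:**
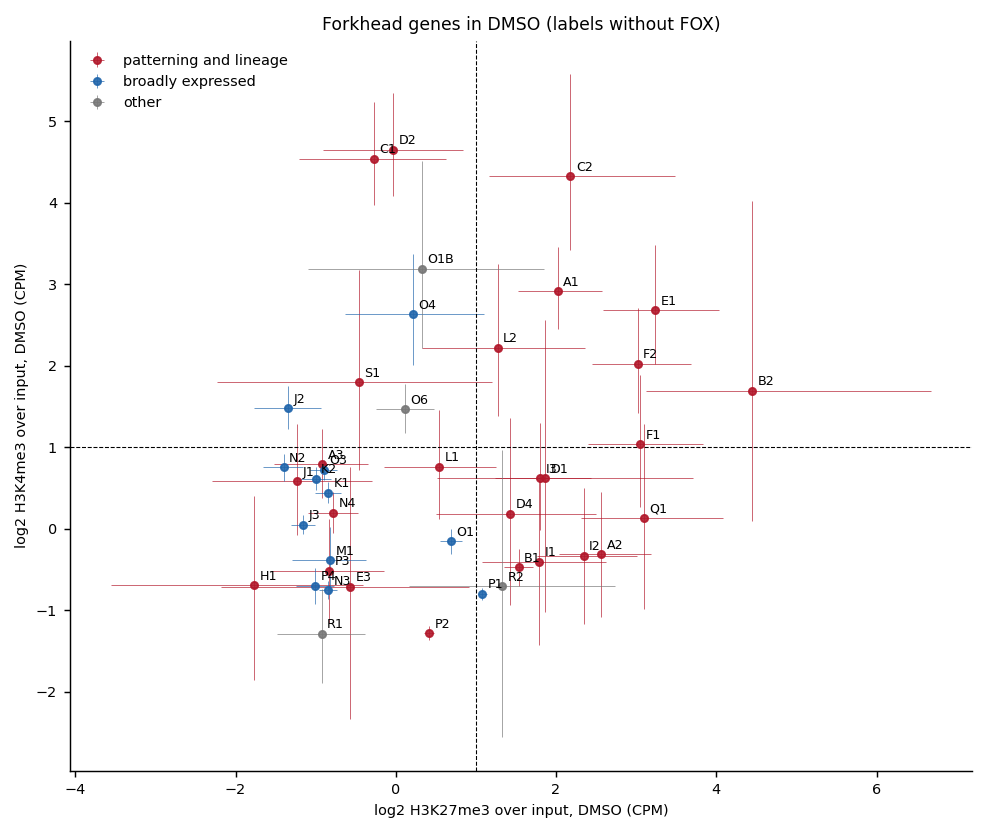
Level of H3K27me3 (horizontal) and H3K4me3 (vertical) over input in DMSO, each as a log2 ratio of CPM, for 42 members with at least 20 input counts. Each point is 1 gene in 1 library per antibody, colored by role, with bars for the 95% counting interval and dashed lines at 2-fold. The upper right corner, past both lines, holds 7 patterning genes, and of the blue broadly expressed genes only FOXP1 lies right of the vertical line.

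The highest level was at FOXB2, a gene of the neural tube, with 194 counts of H3K27me3 over 7 of input in DMSO and 97 over 20 in MAK683. Its log2 level in DMSO was 4.45 with an interval of 3.12 to 6.68, wide because of the few input counts. FOXE1, needed for the thyroid, had 416 counts over 38 in DMSO and 274 over 50 in MAK683. FOXE1 therefore stood at 3.24 (2.59 to 4.03) in DMSO and 2.98 in MAK683, high in both libraries. FOXA2, a pioneer factor of endoderm and floor plate, had 416 counts over 61 in DMSO and 327 over 72 in MAK683. These gave log2 levels of 2.57 and 2.72, above 2-fold in both treatments. In GENCODE 44, which is not necessarily the annotation used for counting, FOXD1, FOXD3, FOXJ1, FOXO1 and FOXP1 have less than 50% of their span unshared with other genes.

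The FOXI genes, which act in the inner ear, kidney and epidermis, were all in this group. FOXI2 had 310 counts over 53 in DMSO and 169 over 47 in MAK683, FOXI3 had 249 over 62 and 117 over 67, and FOXI1 had 152 over 38 and 88 over 72. The level of FOXI2 was 2.34 and 2.37, while FOXI1 went from 1.79 to 0.83. FOXD1, a marker of kidney stroma, had 44 counts over 10 in DMSO and 25 over 25 in MAK683, and FOXD4 had 78 over 25 and 38 over 42. FOXB1, a gene of the hypothalamus, was long enough for close counting, with 2206 over 670 in DMSO and 1447 over 838 in MAK683. Its level was 1.53 and 1.34. FOXD4 has near-identical copies, of which FOXD4L1 had 51 and 14 counts of H3K27me3 and the others at most 6 in any library, so its reads can be split between them.

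Among the broadly expressed members FOXP1 stood apart. It had 17257 counts of H3K27me3 over 7173 of input in DMSO and 9987 over 8624 in MAK683, a level of 1.08 (1.02 to 1.14) and then 0.76. It sat close to the 2-fold line, and only 0.72% of its span is unshared in GENCODE 44. FOXO1, an effector of insulin signaling, was next at 0.69 in DMSO and 0.68 in MAK683, and the 10 others were at most 0.22 (FOXO4) in DMSO. FOXN2, FOXJ2 and FOXJ3 were the lowest of them at -1.40, -1.34 and -1.16. Patterning genes without H3K27me3 in DMSO included FOXJ1, the regulator of motile cilia (28 counts over 59), FOXA3 of the liver (82 over 137) and FOXH1, a partner of SMADs in nodal signaling (11 over 35).

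H3K4me3 of at least 2-fold over input was found at 15 of 43 members (34.9%) in DMSO, against 22.3% of all genes. Among members under 10 kb it was 12 of 26, or 46.2%, which is near the 47.3% of protein-coding genes of that length. The top of the range was held by FOXD2, FOXC1 and FOXC2. FOXD2, expressed in kidney mesenchyme, had 1483 counts of H3K4me3 over 46 of input in DMSO and 1117 over 72 in MAK683, with 51 and 31 counts of H3K27me3. Its log2 level of H3K4me3 in DMSO was 4.65 (4.08 to 5.34). FOXC1, needed for eye and vessel formation, reached 4.54 (3.97 to 5.23). Both genes had H3K27me3 near or below input, at -0.04 and -0.28. H3K4me3 without H3K27me3 was also seen at FOXO4, FOXO6, FOXJ2, FOXS1 and FOXO1B. FOXO1B is a processed copy of FOXO1 and can share reads with it.

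Both modifications were at least 2-fold over input at 8 of 43 members in DMSO (18.6%), against 1.13% of all genes. Among members under 10 kb it was 8 of 26, against 4.66% of protein-coding genes of that length. All 8 were patterning genes, among them FOXA1, FOXB2, FOXC2, FOXE1, FOXF1, FOXF2 and FOXL2. FOXA1, the second endoderm pioneer, had 354 counts of H3K27me3, 731 of H3K4me3 and 76 of input in DMSO, and 165, 584 and 113 in MAK683. FOXL2, which maintains the ovary, had 70, 151 and 25 in DMSO and 56, 131 and 43 in MAK683. FOXA1 was clearly above input for both modifications in DMSO, with log2 levels of 2.02 (1.52 to 2.58) and 2.91 (2.44 to 3.45). The intervals of FOXB2 (H3K4me3 0.09 to 4.02), FOXF1 (0.27 to 1.88) and FOXL2 (H3K27me3 0.33 to 2.36) reached below 2-fold for 1 of the modifications. With both inputs summed as the denominator the count was 5, with FOXB2, FOXF1 and FOXL2 leaving, and with 1 CPM added it was 4. These are reads of cell populations counted per gene, and whether both marks sat on the same chromatin was not tested.

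The modifications differed from gene to gene within the family's chromosomal clusters. On chromosome 6, in GENCODE 44 on GRCh37, FOXQ1 (chr6:1312333-1314993), FOXF2 (chr6:1389811-1395838) and FOXC1 (chr6:1610150-1614132) lie on the plus strand, 74.8 and 214 kb apart. FOXQ1, an epithelial gene, had 260 counts of H3K27me3 over 26 of input in DMSO and 121 over 27 in MAK683, while its H3K4me3 counts were 36 and 74. FOXF2, a gene of gut and craniofacial mesenchyme, had 477 over 51 and 230 over 98, with H3K4me3 counts of 265 and 402. FOXC1 had 43 over 46 and 20 over 46, with H3K4me3 counts of 1376 and 1204. In DMSO these neighbors thus fell into 3 different classes, with H3K27me3 only at FOXQ1, both at FOXF2 and H3K4me3 only at FOXC1. Their levels of H3K27me3 were 3.09, 3.02 and -0.28, and those of H3K4me3 were 0.13, 2.02 and 4.54. The H3K4me3 interval of FOXQ1 (-0.98 to 1.28) reached past 2-fold.

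On chromosome 16, FOXF1 (chr16:86544133-86549028), FOXC2 (chr16:86600435-86603334) and FOXL1 (chr16:86609974-86617084) are also on the plus strand, 51.4 and 6.64 kb apart. FOXF1, a target of hedgehog signaling in lung and gut mesenchyme, had 374 counts of H3K27me3 over 39 of input in DMSO and 156 over 61 in MAK683, with H3K4me3 counts of 102 and 210. FOXC2, a gene of lymphatic vessels and heart outflow, had 91 over 17 and 62 over 29, with H3K4me3 counts of 451 and 446. FOXL1, expressed in gut mesenchyme, had 98 over 59 and 86 over 75, with H3K4me3 counts of 127 and 128. FOXF1 thus had the highest level of H3K27me3 of the 3 (3.05, against 2.18 and 0.54) and FOXC2 that of H3K4me3 (4.33, against 1.03 and 0.76). For H3K27me3 the intervals of FOXF1 (2.40 to 3.83) and FOXC2 (1.16 to 3.49) overlapped. FOXL1 passed 2-fold for neither, with intervals that reached past it (H3K27me3 -0.14 to 1.26, H3K4me3 0.12 to 1.45). The noncoding gene FENDRR lies on the minus strand and starts 1.43 kb from the start of FOXF1, so that the 2 genes run apart. FENDRR had 3129 and 1683 counts of H3K27me3, 510 and 776 of H3K4me3 and 463 and 594 of input. Like FOXF1 it had H3K27me3 over input in both treatments (2.57 and 2.05) and a larger share of its H3K4me3 in MAK683 (60.3%, 56.4 to 64.1) than the library. Whether the marks of both genes come from 1 region around their starts was not tested.

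Promoters in the RefSeq table (GRCh38.p14, 250 bases before to 50 after the start site) were read for 32 members. Members with no entry included FOXA2, FOXC2, FOXE3, FOXF1, FOXH1, FOXJ1, FOXL1, FOXM1, FOXN2, FOXO1B and FOXS1. Those of the chromosome 6 cluster (chr6:1311848-1312147, chr6:1389326-1389625 and chr6:1609665-1609964) are shown because the 3 genes differ in their marks, and those of FOXI1 (chr5:170105647-170105946) and FOXR2 (chrX:55623150-55623449) because they carry H3K27me3 with fewer CG pairs. At FOXR2 the call rests on 47 counts over 16 of input in DMSO, a level of 1.32 (0.16 to 2.74), and with 1 CPM added FOXR2 was under 2-fold. All 5 windows are on the plus strand of GRCh38.p14, whereas the counts are on hg19, and each CG pair is in capitals.
FOXQ1: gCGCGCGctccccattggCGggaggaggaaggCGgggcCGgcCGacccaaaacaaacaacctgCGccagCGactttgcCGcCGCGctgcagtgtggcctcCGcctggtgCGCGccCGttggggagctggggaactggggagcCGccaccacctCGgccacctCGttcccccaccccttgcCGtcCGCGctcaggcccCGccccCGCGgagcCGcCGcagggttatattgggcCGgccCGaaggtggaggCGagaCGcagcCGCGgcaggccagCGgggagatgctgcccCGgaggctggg
FOXF2: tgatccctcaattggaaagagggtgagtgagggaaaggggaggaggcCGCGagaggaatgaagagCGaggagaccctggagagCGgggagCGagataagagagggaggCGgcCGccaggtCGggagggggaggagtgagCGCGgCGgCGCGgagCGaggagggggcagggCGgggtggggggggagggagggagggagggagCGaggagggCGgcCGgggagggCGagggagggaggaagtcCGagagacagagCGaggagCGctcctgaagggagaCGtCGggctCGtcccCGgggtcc
FOXC1: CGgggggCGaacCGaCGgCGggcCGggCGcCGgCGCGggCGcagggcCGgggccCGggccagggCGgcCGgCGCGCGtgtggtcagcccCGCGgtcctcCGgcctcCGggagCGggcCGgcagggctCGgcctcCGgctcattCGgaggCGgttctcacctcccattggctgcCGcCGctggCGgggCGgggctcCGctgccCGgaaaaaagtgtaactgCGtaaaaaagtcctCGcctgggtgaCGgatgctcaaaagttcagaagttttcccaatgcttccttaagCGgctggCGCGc
FOXI1: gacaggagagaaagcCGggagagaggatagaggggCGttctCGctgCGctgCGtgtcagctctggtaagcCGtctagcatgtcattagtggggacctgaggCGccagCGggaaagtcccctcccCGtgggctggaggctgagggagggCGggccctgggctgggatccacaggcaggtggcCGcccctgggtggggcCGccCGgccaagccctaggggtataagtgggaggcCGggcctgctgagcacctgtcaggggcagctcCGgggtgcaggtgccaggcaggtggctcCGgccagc
FOXR2: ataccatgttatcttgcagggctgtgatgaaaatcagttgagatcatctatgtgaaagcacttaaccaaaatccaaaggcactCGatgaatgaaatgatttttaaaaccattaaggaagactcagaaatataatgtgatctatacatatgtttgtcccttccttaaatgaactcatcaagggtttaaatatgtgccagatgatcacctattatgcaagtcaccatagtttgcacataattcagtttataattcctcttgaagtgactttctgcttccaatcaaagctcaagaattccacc
These windows held 35, 26, 40, 16 and 1 CG pairs. The median was 28.5 in the 32 members, 14 in all 27305 promoters and 22 in the 14145 of protein-coding genes. By the 2-fold classes in DMSO it was 28 for 5 members with both modifications, 16 for 9 with H3K27me3 only, 40 for 5 with H3K4me3 only and 30 for 12 with neither. FOXR2 and FOXP2 had 1 CG pair each, while FOXK1 and FOXK2, under 2-fold for both modifications, had 55 each. FOXK1 and FOXK2 span 89.1 and 125 kb. Their H3K4me3 levels in DMSO were nonetheless above input, at 0.44 (0.32 to 0.57) and 0.62 (0.47 to 0.76). Across 31 members Spearman's rho with CG pairs was -0.27 for H3K27me3 and 0.36 for H3K4me3, and with gene length it was -0.61 and -0.45. These values describe genes that share the same libraries and are not independent. The forkhead motif GTAAACA, or TGTTTAC on the other strand, was found only in the FOXO4 window, or 1 of 32, against 3.41% of all promoters in the table.

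H3K27me3 counts were lower in MAK683 than in DMSO at 43 of 44 members, FOXS1 (13 and 15) being the exception. The H3K27me3 library of MAK683 was also smaller and held 41.0% of the counts of both, so changes were taken relative to the median log2 ratio over all genes with at least 10 counts in 1 of both libraries, which was -0.44. On this scale 16 of 44 members were at least 1.2-fold lower (36.4%), against 24.4% of 29931 genes, and 2 of 44 (FOXJ2 and FOXS1) were at least 1.2-fold higher, against 24.1%. Taken over input, 21 members were at least 1.2-fold lower, against 28.1% of all genes, and 17 of 27 under 10 kb, against 39.3%. Of these 21, 14 were among the 16, while FOXI2 (-0.43 in the counts and -0.04 over input) and FOXM1 (-0.41 and -0.18) left. The median log2 change of the family in the counts was -0.14 (-0.34 to 0.026). Among members under 10 kb 13 of 27 were lower, against 33.2% of such protein-coding genes, and 1 was higher, against 29.8%. Among the 18 members with H3K27me3 in DMSO, 12 were lower (66.7%), which is near the 64.0% of all genes with that level, and under 10 kb it was 11 of 16 against 64.1%. Among the 25 below 2-fold it was 4 (FOXC1, FOXH1, FOXM1 and FOXO6), or 16%, near the 16.2% of all genes, and under 10 kb 2 of 10 against 25.7%. These 18 were picked by the same DMSO library that enters the change, and such a choice by itself widens the difference.

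For 7 members the interval of the share of counts found in MAK683 lay below the share of the library, and FOXF1 was the lowest of them. All but FOXP2 were among the 16 members at least 1.2-fold lower in the counts. The intervals of the other members of the 16 held the share of the library. FOXF1 went from 374 to 156 counts of H3K27me3, so that 29.4% (24.0 to 35.3) of its counts were found in MAK683, and its relative log2 change was -0.82. FOXA1 went from 354 to 165 counts (31.8%, 26.2 to 37.8) and FOXF2 from 477 to 230 (32.5%, 27.7 to 37.7). FOXQ1 and FOXI3 had shares of 31.8% and 32.0%. FOXP1 and FOXP2, both with high counts, had closely bounded shares of 36.7% (35.8 to 37.5) and 38.7% (37.7 to 39.8). The interval lay above the share of the library for FOXJ2, FOXJ3, FOXK1, FOXK2 and FOXN3. All 5 are broadly expressed members longer than 10 kb, with H3K27me3 below input in DMSO. FOXN3, for example, had 2079 and 1745 counts, a share of 45.6% (43.4 to 47.9). Among all genes under 2-fold H3K27me3 in DMSO the median relative log2 change was 0.06. An interval clears the library share more easily where counts are high, and how many of all genes had such intervals was not counted. FOXH1 went from 11 counts to 0, where the interval of the share reached 48.9% and so held the share of the library, and FOXR2 from 47 to 15. FOXA2, FOXE1 and FOXC2 had relative log2 changes of 0.09, -0.16 and -0.11, and all 3 had at least 4-fold H3K27me3 over input in DMSO. Taken over input these were 0.08, -0.33 and -0.63, so that FOXE1 and FOXC2 were then at least 1.2-fold lower.

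**Figure D2:**
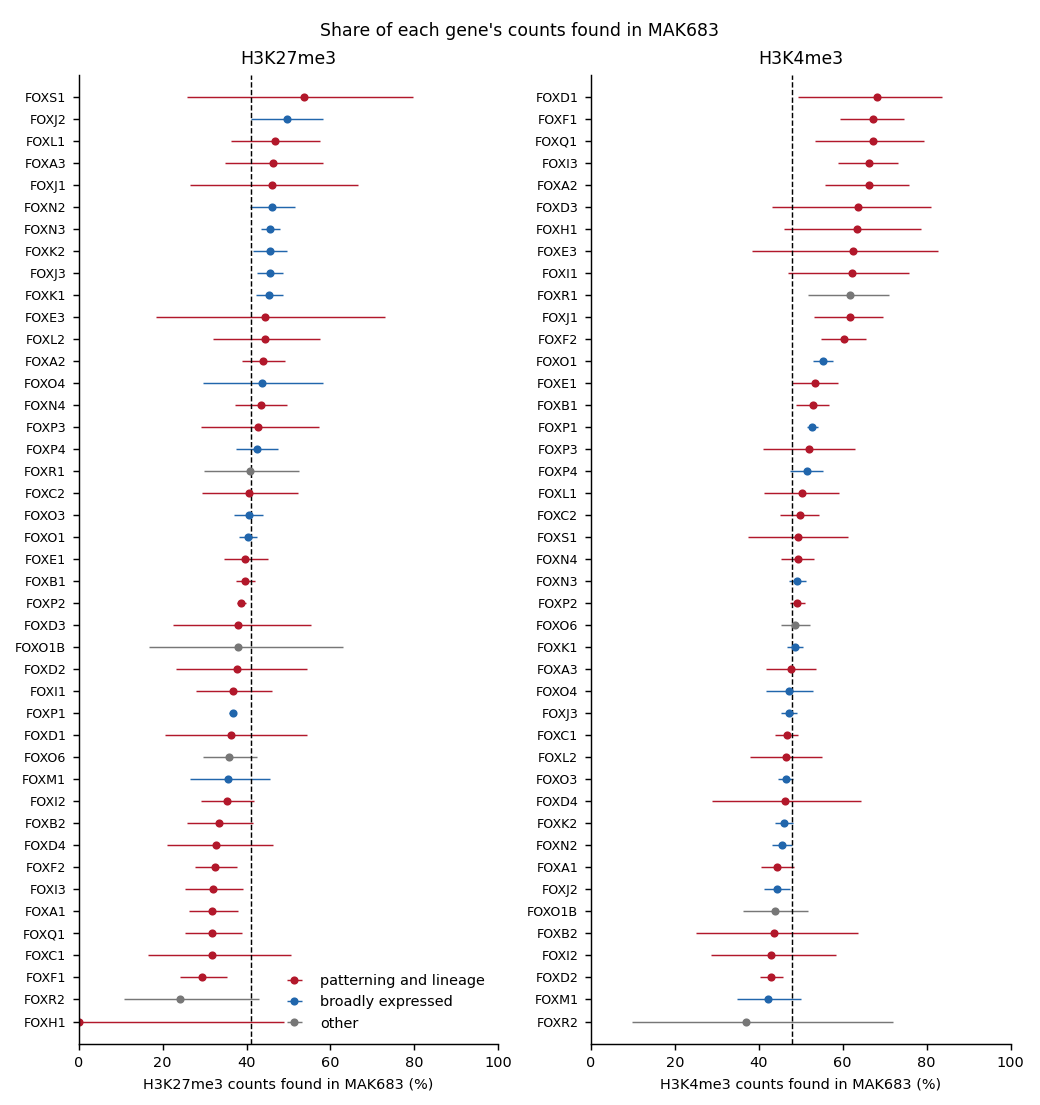
Share of the H3K27me3 (left) and H3K4me3 (right) counts of 43 members that was found in MAK683, out of both treatments, in percent and in order of the share. Points are colored by role, bars are 95% counting intervals, and dashed lines mark the share of the whole library, 41.0% for H3K27me3 and 48.0% for H3K4me3. FOXD1, FOXF1 and FOXQ1 lead the order for H3K4me3, and the blue broadly expressed genes lie near its line.

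In MAK683 at least 2-fold H3K27me3 over input was found at 12 of 43 members (27.9%), against 8.84% of all genes, and at 11 of 26 under 10 kb against 14.1%. These levels give a place within the library and not an amount of H3K27me3 left. The paper reported a genome-wide depletion of H3K27me3 by MAK683. All 12 were among the 18 of DMSO. FOXD1, FOXD4, FOXI1, FOXL2, FOXP1 and FOXR2 left, with log2 levels between 0.06 and 0.92. Input was higher in MAK683 at all 6, by 0.05 (FOXP1) to 1.03 (FOXD1) in log2 CPM, with counts of 25 and 43 at FOXL2, 10 and 25 at FOXD1 and 38 and 72 at FOXI1. FOXL2 held 44.4% of its H3K27me3 counts in MAK683, a relative log2 change of 0.12 before input is considered. Among the 10 members with H3K27me3 only, 3 stayed so, 2 (FOXI3 and FOXQ1) then had both modifications and 5 had neither. Of the 8 with both, 6 were past 2-fold for both in MAK683 as well. FOXB2 then had H3K27me3 only and FOXL2 H3K4me3 only. Both modifications were found at 8 members in MAK683, against 1.24% of all genes, and all 8 were under 10 kb, where it was 5.04%. H3K4me3 of at least 2-fold was found at 18 of 43 members in MAK683, against 21.2% of all genes, and at 15 of 26 under 10 kb, against 48.3%. The 7 with H3K4me3 only all kept it, and FOXA3 and FOXJ1 joined them. FOXA3 did so without a rise in counts, at 300 and 273 of H3K4me3 over 137 and 134 of input. Its level was 0.79 in DMSO and 1.01 (0.59 to 1.46) in MAK683.

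**Figure D3:**
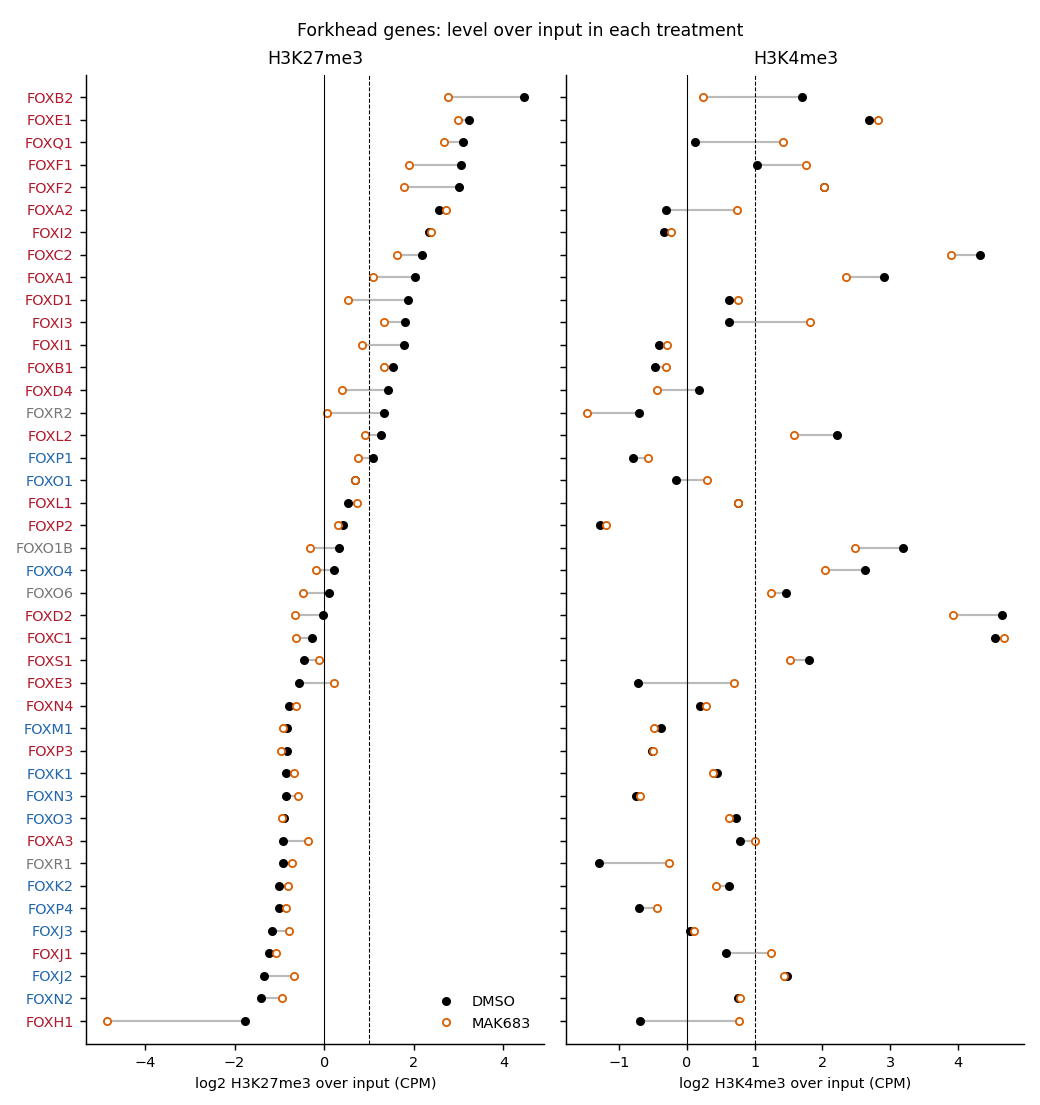
Log2 level of H3K27me3 (left) and H3K4me3 (right) over input in CPM for 42 members, in DMSO (black) and MAK683 (open orange), in order of H3K27me3 in DMSO. Names are red for patterning, blue for broadly expressed and grey for other members, and each point is 1 library. The dashed line marks 2-fold, which 17 of the plotted members passed for H3K27me3 in DMSO and 11 in MAK683, and FOXH1 lies far left in MAK683 because its count was 0.

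H3K4me3 counts were lower in MAK683 at 24 members and higher at 20, while the MAK683 library held 48.0% of the counts of both. The median log2 change relative to all genes was 0.07 (-0.05 to 0.27), and with the counts as deposited it was -0.04. At least 1.5-fold higher H3K4me3 in MAK683, relative to the all-gene median of -0.11, was found at 12 of 44 members (27.3%), against 9.94% of 30028 genes. All 12 were under 10 kb, where they made up 12 of 27 members, against 14.8% of protein-coding genes of that length. They were FOXA2, FOXD1, FOXD3, FOXE3, FOXF1, FOXF2, FOXH1, FOXI1, FOXI3, FOXJ1, FOXQ1 and FOXR1, and 11 of them belonged to the patterning group. None of the 12 broadly expressed members was among them, and of those only FOXO4 is under 10 kb. FOXR2, with 12 and 7 counts, was at least 1.5-fold lower, as were 5.0% of all genes and 5.27% of protein-coding genes under 10 kb. Among the 18 members with H3K27me3 in DMSO, 7 were higher, against 20.9% of all genes with that level, and among members of that class under 10 kb 7 of 16 were higher against 35.3%. Among the 25 without it, 4 (FOXE3, FOXH1, FOXJ1 and FOXR1) were higher, against 7.08%. All 4 were among the 10 such members under 10 kb, where the share was 9.69% of protein-coding genes.

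FOXD1, FOXF1, FOXQ1, FOXI3 and FOXA2 were more than 2-fold higher in H3K4me3 relative to the all-gene median, FOXD1 with few counts (20 and 43). FOXF1 had 102 counts of H3K4me3 in DMSO and 210 in MAK683, a share of 67.3% (59.3 to 74.6) in MAK683. FOXI3 had 121 and 239 (66.4%, 59.0 to 73.2), FOXA2 62 and 122 (66.3%, 55.7 to 75.8) and FOXQ1 36 and 74 (67.3%, 53.3 to 79.3). The intervals of these 4 lay above the 48.0% of the library. Their H3K27me3 did not move alike, since the relative log2 change was -0.82 at FOXF1, -0.66 at FOXQ1 and -0.64 at FOXI3 but 0.09 at FOXA2. Their levels of H3K4me3 over input went from 1.03 to 1.76 at FOXF1, from 0.13 to 1.41 at FOXQ1, from 0.62 to 1.81 at FOXI3 and from -0.31 to 0.74 at FOXA2.

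Input also differed between the treatments at several of the 12. FOXF2 had 265 and 402 counts of H3K4me3 (60.3% in MAK683, 54.8 to 65.6), but its input went from 51 to 98 counts and its level over input was 2.02 in both treatments. FOXD1 had 20 and 43 counts of H3K4me3 with 10 and 25 of input, and FOXI1 had 36 and 59 with 38 and 72. Taken over input, 10 members were at least 1.5-fold higher, against 11.5% of all genes and, since all 10 were under 10 kb, 16.6% of protein-coding genes of that length, and 9 of them were also higher in the counts alone, with FOXF2, FOXD1 and FOXI1 leaving. FOXJ1 had 112 and 180 counts (61.6%, 53.2 to 69.6) with 59 and 75 of input, and FOXR1 had 80 and 129 (61.7%, 51.7 to 71.1) with 156 and 154. At FOXD3, a gene of neural crest, H3K4me3 counts were 20 and 35, at FOXE3, a lens gene, 15 and 25, and at FOXH1 27 and 47. The intervals of these 3, of FOXD1 and of FOXI1 were wide, and all but that of FOXD1 (49.3 to 83.6) held the share of the library.

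Smaller differences were bounded where counts were high. FOXO1 went from 1533 to 1900 counts of H3K4me3, a share of 55.3% (53.0 to 57.7), and FOXP1 from 5221 to 5826, a share of 52.7% (51.4 to 54.1). Both lay above the share of the library but below 1.5-fold. FOXD2 went from 1483 to 1117 (43.0%, 40.2 to 45.7), FOXJ2 from 1122 to 896 and FOXN2 from 1858 to 1551, and these 3 were the members with intervals below the library. FOXM1, which drives mitotic genes, had 134 and 74 counts of H3K27me3 and 202 and 148 of H3K4me3, with log2 levels between -0.93 and -0.39, below input in both treatments.

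Genes downstream of or acting with the family were read from lists of targets and partners. Of 16 partners of FOXF and FOXC genes in hedgehog, BMP, Notch and vascular signaling, 8 had at least 2-fold H3K27me3 in DMSO (SHH, IHH, DLL1, HEY1, HEY2, FLT1 and TEK among them) and 9 had H3K4me3, against 12.6% and 22.3% of all genes. H3K27me3 was at least 1.2-fold lower at 10 of them, against 24.4% of all genes, with a median of -0.28. H3K4me3 was at least 1.5-fold higher at 2, DLL1 among them, near the 9.94% of all genes. SHH, the hedgehog ligand, had 803 and 395 counts of H3K27me3 with 170 and 225 of input. Of 17 measured FOXO targets, 1 (GADD45A) had H3K27me3 and 8 had H3K4me3, against 12.6% and 22.3% of all genes. H3K27me3 was at least 1.2-fold lower at 7 of these targets and higher at 3, against 24.4% and 24.1% of all genes. H3K4me3 was at least 1.5-fold higher at IRS2 alone, against 9.94%. All 12 FOXM1 targets were under 2-fold for H3K27me3 and 10 had H3K4me3, against the same 12.6% and 22.3%. At least 1.2-fold lower H3K27me3 was found at 1 of the 12 and higher at 2, against 24.4% and 24.1%. None was 1.5-fold higher in H3K4me3, against 9.94%, and none 1.5-fold lower, against 5.0%. The relative log2 changes of H3K4me3 at these 12 targets ran from -0.53 (PLK1) to -0.18 (CDC25B), with a median of -0.38. Other families of developmental transcription factors in the table also held H3K27me3 in DMSO, at 6 of 13 SOX genes and 4 of 12 T-box genes against 12.6% of all genes, and H3K4me3 was at least 1.5-fold higher at 5 of 14 and 3 of 12 against 9.94%. No difference between these families and the forkhead genes was tested.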

How the data were processed

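Reads of 6 ChIP-seq libraries from G401 cells were trimmed by the authors with Trim Galore 0.4.4, aligned with Bowtie2 to hg19, filtered with Picard 2.23.6 and counted with featureCounts, per the labels. The deposited values are raw counts per gene without the spike-in scaling, and the annotation and the counted part of a gene are not given in the sources used here. The files were read in Python 3.11.15 with pandas 2.3.3, numpy 2.4.6 and scipy 1.17.1, and figures drawn with matplotlib 3.10.9. Levels were log2 ratios of ChIP to input in CPM (0.05 CPM added, at least 20 summed input counts). Changes were log2 ratios of MAK683 to DMSO counts (1 added, at least 10 counts in 1 of both libraries) minus the median of all genes. Genes were matched by symbol to GENCODE 44 on GRCh37 (33514 of 56638). Every member could be named, and other genes came from lists of neighbors, copies, targets and partners. Thresholds of 2-, 1.2- and 1.5-fold name genes by size. The members and lists were chosen with earlier results of these data known. Computations were tested on simulated data. The alternatives were other pseudocounts, minimums, scales and denominators, and members left out. Intervals and floors cover counting error only. RNA-seq, ATAC-seq and bisulfite sequencing were not analysed here. The values of 1 member and 1 partner gene are not reported here, though the counts include them, and the figures leave that member out.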

Additional observations from a re-analysis of the deposited data

How the results depend on the processing

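Over 66 combinations of a result and an alternative, 57 stayed within 1.5 times the count or within the interval of the median. With a minimum of 100 summed input counts, 29 members were left, and the counts at 2-fold or more in DMSO fell to 9 for H3K27me3, 7 for H3K4me3 and 3 for both. Members with both were 4 with 1 CPM added and 5 with both inputs summed. Members at least 1.2-fold lower in H3K27me3 were 35 with the counts as deposited and 31 with no minimum of counts, where genes at 0 enter the median of all genes. The median H3K27me3 change was then -0.58 and -0.50. The median H3K4me3 change, 0.07, was -0.04 with the counts as deposited and with no minimum, inside its interval. No paired analysis was possible because each group held 1 library. Few input counts, as at FOXB2 and FOXD3, limit the levels of short members. The alternatives that left out FOXO1B or kept only protein-coding members under 10 kb were chosen after seeing the data.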
